A study of Caenorhabditis elegans with 2 samples.

Results

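Regions at snRNA and snoRNA genes were taken from a map of NHR-10 binding in L2 larvae of Caenorhabditis elegans. They were the regions of the pooled list whose summit lay within 500 bp of a gene that Ensembl classes as snRNA or snoRNA, without those within 1000 bp of an sls-2 gene. These were 312 of 30000 pooled regions, and they lay at 248 of 457 such genes (54.3%). NHR-10 is a nuclear hormone receptor, and its chromatin immunoprecipitation sequencing (ChIP-seq) was done in strain OP239, genotype unc-119(ed3) III; wgIs239. In this strain a stably expressed transgene carries NHR-10 fused at its C terminus to GFP-FLAG, so the protein mapped is the tagged copy. Whole larvae of pooled sexes gave 2 biological replicates of 1 group, so every comparison below is between regions and none is between conditions. Signals are averages over all larval tissues.

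Small nuclear RNAs (snRNAs) are the RNA parts of the spliceosome, with U1 and U2 pairing to the 5′ splice site and the branch point, and U4, U5 and U6 joining later. Small nucleolar RNAs (snoRNAs) guide chemical modification of ribosomal and spliceosomal RNA. In animals most snoRNAs are known to be processed out of introns of host genes and to use the host's promoter, whereas snRNA genes have promoters of their own. Those promoters carry a proximal sequence element, PSE, bound by the SNAPc complex; U6 genes add a TATA box and are transcribed by RNA polymerase III. In worms many snoRNA genes, some inside introns, are known to have promoters of their own as well.

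The deposited narrowPeak lists give each region a signal, the authors' own value, and the position of its summit. The thresholded list, made by irreproducible discovery rate (IDR) from the pooled and both replicate lists, held 491 peaks. It was identical to the pooled regions of rank 1 to 491 by signal, and its lowest signal was 27.4. Neighbouring pooled regions overlap each other, so 608 of the 30000 (2.03%) overlapped a thresholded peak by at least 1 bp while 491 (1.64%) were themselves listed. Read depth is unknown, because the lists hold no read counts. The sources used here annotate no promoter for a small RNA, so snoRNA genes were split by position: inside an intron of a protein-coding gene on the same strand, here called host introns, or outside host introns.

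The 100 bases upstream of the annotated start are printed for the genes on which the results turn: 5 snRNA genes, then 5 snoRNA genes in host introns, then 2 snoRNA genes outside host introns. W05B2.8, F54E7.10 and Y67A10A.14 held the region of highest signal of each class among the printed genes, and the others were chosen after their values were seen. Bases are from the RefSeq genome, assembly WBcel235, which is the files' ce11, and are written 5′ to 3′ on the gene's strand. Capitals mark GCGNAAC, where N stands for any base. They also mark TGTCGG, which forms the core of the worm PSE. The word TATATAA is of the kind found in promoters read by RNA polymerase III, and GTTCGAA is of the kind found in the B box of tRNA genes.
W05B2.8, chrIII:10989579-10989678, plus strand: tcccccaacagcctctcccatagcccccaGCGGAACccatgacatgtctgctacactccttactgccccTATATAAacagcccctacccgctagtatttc
sup-6, chrII:12944968-12945067, minus strand: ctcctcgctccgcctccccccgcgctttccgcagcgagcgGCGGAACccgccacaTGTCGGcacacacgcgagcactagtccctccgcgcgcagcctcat
C52E4.8, chrV:11980018-11980117, plus strand: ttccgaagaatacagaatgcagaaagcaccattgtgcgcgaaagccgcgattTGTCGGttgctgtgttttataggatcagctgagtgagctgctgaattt
F38E11.10, chrIV:9444542-9444641, plus strand: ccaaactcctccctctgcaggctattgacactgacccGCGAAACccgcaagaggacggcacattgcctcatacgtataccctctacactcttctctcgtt
M163.13, chrX:14476767-14476866, plus strand: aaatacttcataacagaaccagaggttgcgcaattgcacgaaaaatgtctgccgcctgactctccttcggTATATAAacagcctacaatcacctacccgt
C08D8.3, chrV:8349008-8349107, plus strand: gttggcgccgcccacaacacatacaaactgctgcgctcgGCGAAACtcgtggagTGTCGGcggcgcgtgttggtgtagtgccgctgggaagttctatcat
ZK994.7, chrV:8500479-8500578, plus strand: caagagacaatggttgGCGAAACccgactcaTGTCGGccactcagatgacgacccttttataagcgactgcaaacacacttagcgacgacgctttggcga
T06D8.11, chrII:11224082-11224181, plus strand: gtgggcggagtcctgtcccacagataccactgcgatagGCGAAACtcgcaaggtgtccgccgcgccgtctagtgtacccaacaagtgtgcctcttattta
W04D2.7, chrV:12491180-12491279, plus strand: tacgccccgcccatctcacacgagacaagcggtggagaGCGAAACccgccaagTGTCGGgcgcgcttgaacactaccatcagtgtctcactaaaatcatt
F54E7.10, chrIII:5679278-5679377, plus strand: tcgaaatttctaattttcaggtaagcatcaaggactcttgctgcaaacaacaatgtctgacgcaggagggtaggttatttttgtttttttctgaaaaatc
Y67A10A.14, chrIV:14327122-14327221, minus strand: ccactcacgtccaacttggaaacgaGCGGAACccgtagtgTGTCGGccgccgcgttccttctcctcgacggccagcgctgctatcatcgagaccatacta
F32E10.10, chrIV:7574022-7574121, plus strand: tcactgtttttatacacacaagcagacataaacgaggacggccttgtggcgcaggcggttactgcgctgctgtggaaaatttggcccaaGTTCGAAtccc
In sup-6, C08D8.3, ZK994.7, W04D2.7 and Y67A10A.14 the GCGNAAC word stood just upstream of TGTCGG. T06D8.11 and F38E11.10 held GCGNAAC without TGTCGG. C52E4.8 held TGTCGG alone, M163.13 held TATATAA alone, and W05B2.8 held GCGNAAC and TATATAA. By contrast, F54E7.10, the host intron snoRNA with the highest signal, held none of these words. F32E10.10 held GTTCGAA, although no annotated tRNA gene lay within 500 bp of its region.

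The first 60 bases of sup-6 and C52E4.8 show how the genes were sorted into spliceosomal families, since the annotation gives them no U number. Capitals mark a word that the snRNA of that family is known to carry: the U1 stretch that pairs with the 5′ splice site and the start of U4.
sup-6, chrII:12944908-12944967, minus strand: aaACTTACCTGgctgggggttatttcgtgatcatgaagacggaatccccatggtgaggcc
C52E4.8, chrV:11980118-11980177, plus strand: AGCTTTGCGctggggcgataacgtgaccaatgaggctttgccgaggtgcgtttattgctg
U2 was recognised by GTAGTATCT and U5 by GCCTTTTAC, and U6 by letters of its own. No snoRNA gene held any of the 5 words. F38E11.10 held the U5 word, and M163.13 held none.

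The median signal over the 312 regions was 10.7, with quartiles of 7.75 and 17.6, against a median of 8.38 over all pooled regions. Of the 312, 211 (67.6%) lay above the pooled median. They overlapped a thresholded peak in 46 cases (14.7%, exact 95% interval 11.0 to 19.2), at 34 genes, against 2.03% of all pooled regions; 35 of the 46 were themselves listed, and the other 11 overlapped a listed neighbour. The regions were spread unevenly over the ranks. They made up 5 of the 100 pooled regions of highest signal and 30 of the 391 at ranks 101 to 491 (7.67%), against 61 of the 10000 at ranks 20001 to 30000 (0.61%). With the list boundary at rank 491, another 27 of the regions lay at ranks 492 to 1000 (5.3% of those ranks).

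By class, 13 of 56 regions at snRNA genes overlapped a thresholded peak (23.2%, 13.0 to 36.4). At snoRNA genes 33 of 256 did so (12.9%, 9.04 to 17.6). Within those, the count was 19 of 97 in host introns (19.6%, 12.2 to 28.9) and 14 of 159 outside them (8.81%, 4.90 to 14.3). All intervals here are exact and cover counting error only, and neighbouring regions at the same gene are not independent. Counted by gene, the shares were 8 of 111 snRNA genes (7.21%), 14 of 145 host intron snoRNA genes (9.66%) and 12 of 201 snoRNA genes outside host introns (5.97%). No such share was counted over other genes, and the 111 include 12 sls-1 genes that had no region. The medians gave another order, at 9.10 for snRNA, 10.4 for host intron and 10.9 for other snoRNA regions. The difference between host intron and other snoRNA genes depended on the replicate: with the 491 highest regions of replicate 1 alone, the counts were 10 of 97 (10.3%) in host introns and 17 of 159 (10.7%) outside. With replicate 2 alone they were 16 of 97 (16.5%) and 14 of 159 (8.81%). Over all pooled regions the same overlaps came to 2.03% for replicate 1 and 2.02% for replicate 2.

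**Figure D1:**
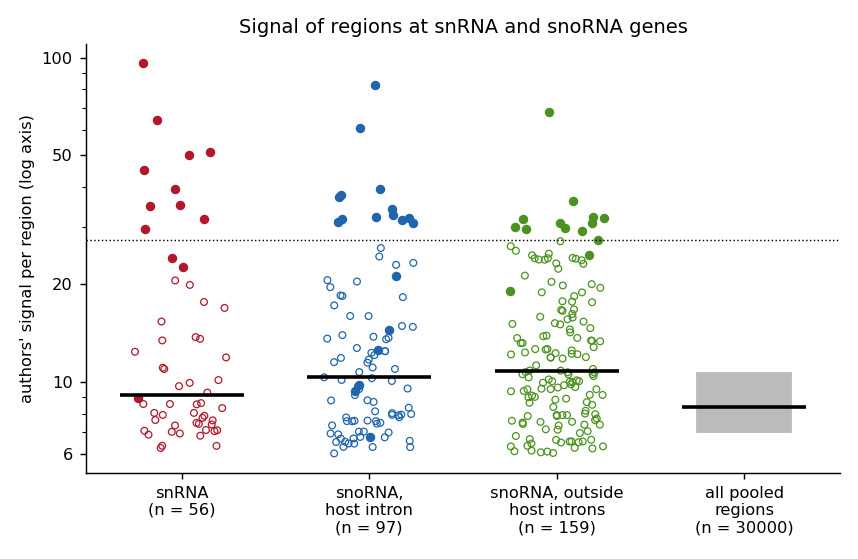
Signal of each region, on a log axis, for the 3 classes of gene, with black bars at the medians; filled points overlap a thresholded peak, and the dotted line is the lowest thresholded signal, 27.4. The grey box gives the quartiles of all 30000 pooled regions around their median of 8.38, and the highest points of the classes stand at 96.0, 82.4 and 67.8.

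A transcription start site (TSS) of a protein-coding gene lay within 1000 bp of 140 of the 312 summits (44.9%), against 38.9% of all pooled summits. Here a TSS is the outer start of the annotated gene, so starts of shorter transcripts inside a gene were not counted. Of these 140, 23 overlapped a thresholded peak (16.4%), against 3.29% of all pooled regions with such a TSS. Of the 172 regions without a TSS that near, 23 did so (13.4%), against 1.22% of all pooled regions without one. In host introns the share without such a TSS within 1000 bp was 13 of 56 (23.2%), and outside host introns it was 5 of 94 (5.32%). With a TSS within 1000 bp, the shares were 6 of 41 (14.6%) in host introns and 9 of 65 (13.8%) outside them. The difference without such a TSS within 1000 bp depended on the replicate. Set against the highest regions of replicate 1 alone, the counts there were 6 of 56 in host introns and 10 of 94 outside. With replicate 2 alone they were 11 of 56 and 6 of 94.

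Position relative to the small RNA gene set the regions apart from each other in the pooled and thresholded lists. A summit 1 to 150 bp upstream of the annotated start was found in 77 regions, and their median signal was 17.2, against 9.79 for the 235 with a summit elsewhere. Of the 77, 23 overlapped a thresholded peak (29.9%, 19.97 to 41.4), against 23 of the 235 elsewhere (9.79%, 6.31 to 14.3). Pooled regions with a summit 1 to 150 bp upstream of a protein-coding TSS numbered 1489 without those at small RNA genes. They had a median signal of 9.78, and 106 of them overlapped a thresholded peak (7.12%). Whether annotated starts of both kinds of gene lie equally close to where transcription begins was not tested. The 150 bp limit was chosen after the values were seen. GC content moved with this split: its median in 200 bp around the summit was 48% in the upstream regions and 38.5% in those elsewhere, against 35% over all pooled regions. Among all 2898 pooled regions of 45 to 55% GC, 215 overlapped a thresholded peak (7.42%). The part of GC content in the result was not tested.

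The upstream position carried the higher pooled signal in each class. At snRNA genes the median was 29.6 for 9 upstream regions, of which 5 overlapped a thresholded peak, against 8.56 and 8 for the 47 elsewhere. In host introns it was 17.2 for 27 upstream regions, with 9 overlapping (33.3%), against 9.76 and 10 for the 70 elsewhere (14.3%). Outside host introns it was 16.8 for 41 upstream regions, with 9 overlapping (22%), against 10.1 and 5 for the 118 elsewhere (4.24%). Away from protein-coding TSSs the host intron snoRNA genes kept this order, with a median of 19.0 for 20 upstream regions and 8.52 for the 36 elsewhere. The overlap counts by class depended on the replicate. With the highest regions of replicate 1 alone, they were 2 of 9 upstream and 8 of 47 elsewhere at snRNA genes. In host introns they were 2 of 27 and 8 of 70, a smaller share upstream, and outside them 7 of 41 and 10 of 118. With replicate 2 alone they were 5 of 9 and 8 of 47 at snRNA genes. In host introns they were then 8 of 27 and 8 of 70, and outside them 8 of 41 and 6 of 118.

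**Figure D2:**
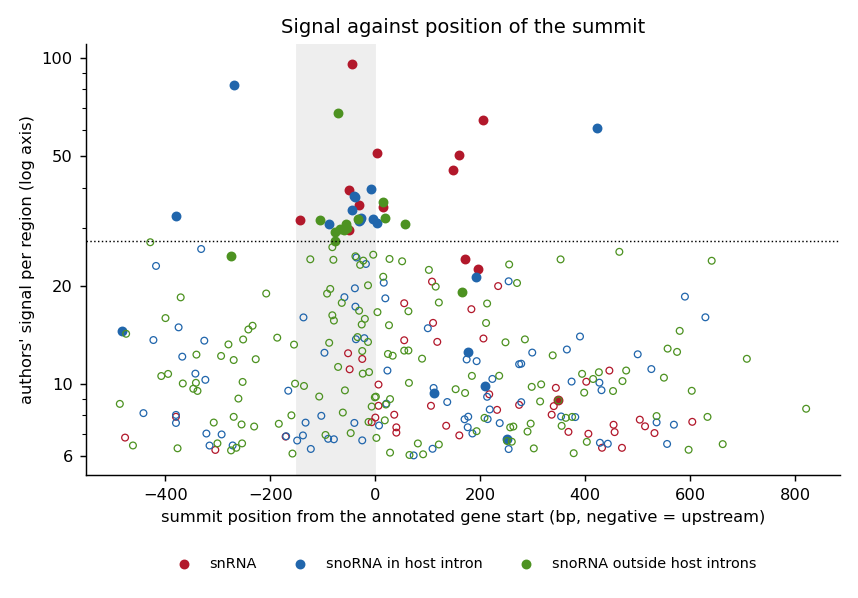
Signal of each region, on a log axis, against the distance in bp of its summit from the annotated start of the small RNA gene, coloured by class, with the 150 bp upstream shaded; filled points overlap a thresholded peak and the dotted line is at 27.4. The 77 shaded regions have a median of 17.2 and hold 23 filled points, as many as the 235 regions outside the shading.

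**Figure D3:**
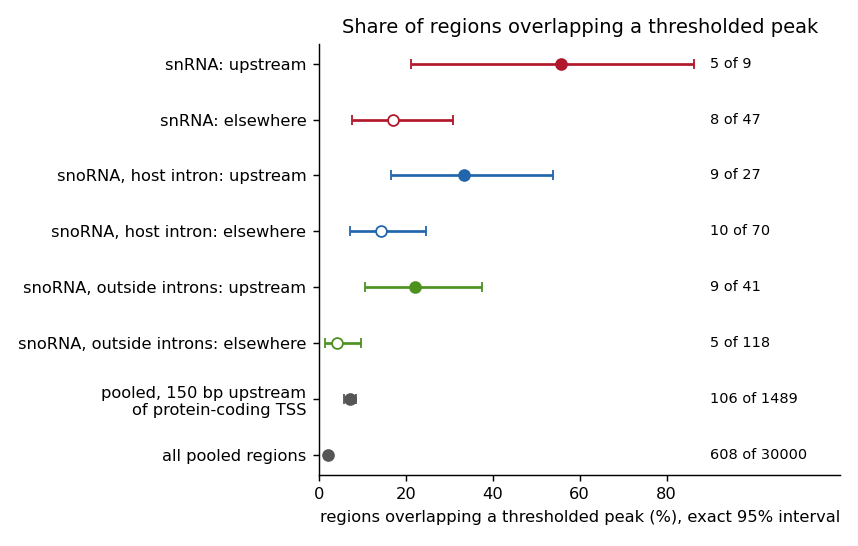
Share of regions that overlap a thresholded peak, in percent with exact 95% intervals, for summits 1 to 150 bp upstream of the gene start (filled) and elsewhere (open) in each class, above pooled regions at protein-coding TSSs and all pooled regions. The upstream shares are 55.6%, 33.3% and 22%, against 7.12% upstream of protein-coding TSSs and 2.03% of all pooled regions.

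The words of the printed sequences were then counted over all genes, in the 100 bases upstream of the start and on the gene's strand. TGTCGG was present upstream of 30 of 111 snRNA genes (27%), 9 of 145 host intron snoRNA genes (6.21%) and 23 of 201 other snoRNA genes (11.4%), against 0.781% of 19973 protein-coding genes. Its first base lay at a median of 47, 48 and 49 bp upstream in these classes. GCGGAAC, the 7-letter word found in the largest number of distinct snRNA upstream sequences, 27 of 101, was generalised to GCGNAAC after the sequences had been seen. GCGNAAC was present upstream of 42 snRNA genes (37.8%), 10 host intron snoRNA genes (6.9%) and 29 other snoRNA genes (14.4%), against 0.811% of protein-coding genes, at a median of 62 bp upstream in all 3 classes. TATATAA was present upstream of 18 snRNA genes (16.2%), at a median of 30.5 bp, and of 3 genes in each snoRNA class (2.07% and 1.49%), against 2.83% of protein-coding genes. These are matches of letters, not measured sites.

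**Figure D4:**
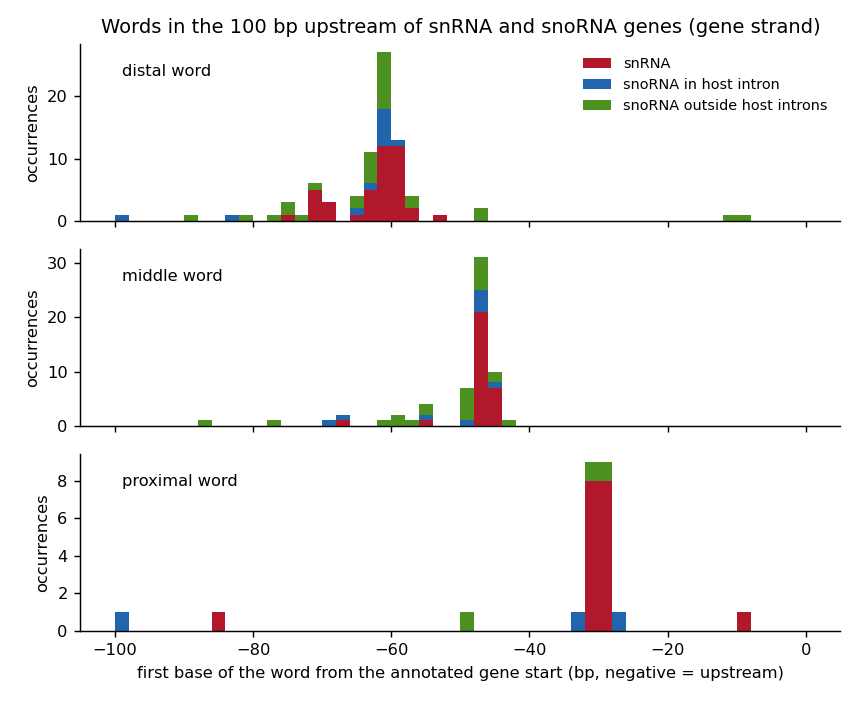
Number of occurrences of GCGNAAC (distal word, top), TGTCGG (middle word) and TATATAA (proximal word, bottom) by distance in bp upstream of the annotated start, over the 457 genes and coloured by class. The distal and middle words stack at about the same distances in all classes, with medians of 62 bp and of 47 to 49 bp, whereas the proximal word stacks at snRNA genes and is upstream of 3 genes in each snoRNA class.

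Signal was also set beside the upstream words. Because GCGNAAC was generalised after the data had been seen, the signals may have shaped the splits by either word. The exact intervals do not cover that choice. The 88 regions at genes with TGTCGG or GCGNAAC upstream had a median signal of 13.0, and 28 overlapped a thresholded peak (31.8%, 22.3 to 42.6), against a median of 10.1 and 18 of 224 (8.04%, 4.83 to 12.4) at genes with neither word. Where the summit also lay 1 to 150 bp upstream, the median was 30.0 and 15 of 25 overlapped (60%, 38.7 to 78.9), against 15.7 and 8 of 52 (15.4%, 6.88 to 28.1) with neither word. Set against the highest regions of replicate 1 alone, these counts were 5 of 25 and 6 of 52. With replicate 2 alone they were 14 of 25 and 7 of 52. In host introns 7 of 8 upstream regions with either word overlapped a thresholded peak (87.5%), against 2 of 19 with neither (10.5%). This host intron difference depended on the replicate: with the highest regions of replicate 1 alone, the counts were 1 of 8 and 1 of 19. With replicate 2 alone they were 7 of 8 and 1 of 19. Median GC was 48.5% in both of these host intron sets. None of those 8 regions had a protein-coding TSS within 1000 bp, and 36.8% of the 19 had such a TSS. Outside host introns 4 of 9 with either word overlapped, against 5 of 32 with neither (15.6%). At snRNA genes 4 of 8 upstream regions with either word overlapped, and so did the only region with neither, at M163.13. Over all summits at snRNA genes the counts were 12 of 41 with either word (29.3%) and 1 of 15 with neither (6.67%). Split by TGTCGG alone, the shares there were close: 5 of 22 regions at snRNA genes with it overlapped (22.7%), against 8 of 34 without it (23.5%). Over all classes the split by TGTCGG alone gave 17 of 51 regions (33.3%), against 29 of 261 without it (11.1%). By gene, 111 of the 457 held either word upstream (24.3%), and so did 19 of the 34 genes with a region that overlapped a thresholded peak.

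Within 100 bp of the summit and on both strands, TGTCGG and GCGNAAC were more frequent than in the pooled list. TGTCGG was found in 39 of the 312 (12.5%), against 4.98% of all pooled regions. GCGGAAC was found in 22 (7.05%), against 0.973%, and GCGNAAC, which includes it, in 46 (14.7%), against 3.81%. GCGGAAC was picked from the upstream sequences of snRNA genes, and the 312 regions were picked for lying near snRNA or snoRNA genes. These choices alone can give an excess of either word over all pooled regions, so the excess does not show a binding preference. At snoRNA genes, whose sequences were not used to pick GCGGAAC, it was found in 16 of 256 regions (6.25%). Among the 2898 pooled regions of 45 to 55% GC the shares were 11% for TGTCGG, 2.55% for GCGGAAC and 7.69% for GCGNAAC, while the median GC of the 312 was 40%. The median GC of those 2898 was 47.5%, so they were not matched to the 312, and the part of GC content was not tested. The other words searched were closer to the share of all pooled regions. GAGAGA was in 15.7% against 13.8%, AGTTCA in 13.1% against 12.7%, CACGTG in 3.85% against 3.80%, and GACGCA in 4.81% against 5.67%. TGATAA, which GATA factors are known to bind, was found in 14.7% against 19.1%. The word TATATAA was found in 3.85% against 4.17%, and the word GTTCGAA was found in 2.56% against 2.91%.

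Among snRNA genes, the highest signal was at W05B2.8, which carries the U6 word and lies in an intron of dhc-4, a dynein heavy chain gene. Its summit at chrIII:10989635 lay 44 bp upstream of the start, with a signal of 96.0 (rank 30 of 30000). The replicate lists gave it 27.8 (rank 21) in replicate 1 and 66.7 (rank 41) in replicate 2. A further region 160 bp past the start had a signal of 50.3, with 35.1 in replicate 2 and no summit within 100 bp in replicate 1. Its gene sequence occurs 17 times in the genome, whereas 20.3% of the 36-base words of the upstream region were repeated elsewhere. The nearest protein-coding TSS was 1762 bp away, and that of dhc-4 was 19691 bp away.

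The snRNA gene sup-6, known with sup-39 as a U1 gene from suppressor mutations, held signals of 64.3 and 51.1 at 206 and 4 bp past its start. Replicate 2 gave these regions 63.7 and 45.4 (ranks 50 and 95), and replicate 1 gave them 3.32 and 4.56 (ranks 10076 and 4466). They were thus among the highest regions of replicate 2 and deep in the list of replicate 1. sup-39, 97.0% identical to sup-6 in sequence, had regions of 19.9, 9.95 and 6.27, none of them overlapping a thresholded peak. At the region of 9.95, replicate 1 had a signal of 16.3 and replicate 2 had no summit within 100 bp. The upstream windows of both genes held GCGNAAC, and that of sup-6 also held TGTCGG, which that of sup-39 lacked. The part of this word in the difference was not tested.

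The remaining snRNA genes with a thresholded peak spanned 4 word families. F38E11.10, with the U5 word, reached 45.2 at 148 bp past its start, with 15.6 in replicate 1 and 33.3 in replicate 2. F32B5.9, also with the U5 word, reached 29.6 at 50 bp upstream, and its replicate 2 signal was 26.0. C52E4.8, with the U4 word, reached 39.3 at 50 bp upstream, with 15.4 in replicate 1 and 26.4 in replicate 2, and snr-4, which encodes an Sm protein of the spliceosome, has its TSS 345 bp from that summit. F08G2.10, with the U2 word, reached 35.0 at 15 bp past its start, and F54D8.7, with the U6 word, reached 31.9 at 144 bp upstream. M163.13 on X reached 35.3 at 32 bp upstream, with 2.77 in replicate 1 and 31.3 in replicate 2. F08G2.10, F54D8.7 and F32B5.9 had no replicate 1 summit within 100 bp of these listed regions.

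All 5 word families were thus represented, each by 1 or 2 genes. Regions at U5-word genes overlapped a thresholded peak in 4 of 10 cases, at U6-word genes in 3 of 11, at U1-word genes in 2 of 9, at U4-word genes in 2 of 4 and at U2-word genes in 1 of 10. The 10 smy genes classed as snRNA, whose SmY RNAs are nematode snRNAs linked to trans-splicing, held GCGNAAC upstream in 9 cases. Their 5 regions had signals of 6.95 to 12.4, and none overlapped a thresholded peak. The annotation classes smy-2 and smy-3 as snoRNA, and these had regions of 20.6, 18.3 and 15.1, also below the thresholded list. None of the 12 sls-1 genes, which encode the SL1 spliced leader RNA, had a region. Repeated sequence differs between the families: 73 of the 111 snRNA genes had over 50% of their 36-base words elsewhere in the genome, as did 6 of the 8 with a thresholded overlap. How reads from identical copies were placed is not given in the sources used here, and the part of such repeats in the snRNA values was not tested.

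Host intron snoRNA genes with a thresholded overlap numbered 14, and none had over 50% repeated 36-base words. In 9 of them a region with that overlap lay over 1000 bp from the TSS of the host. C08D8.3 in C08D8.1 reached 39.5 at 9 bp upstream of the snoRNA, with 11.6 in replicate 1 and 28.5 in replicate 2. ZK994.7 in pxn-1, a peroxidasin gene, reached 37.7 at 40 bp upstream, with 8.65 and 27.3 in replicates 1 and 2, while the TSS of pxn-1 lay 5650 bp away. Y37E3.20 in pcyt-2.1 reached 37.3 at 38 bp upstream, 6044 bp from the host's TSS. T06D8.11 in plpr-1 reached 32.3 at 27 bp upstream with no replicate 1 summit within 100 bp. These regions sat at the snoRNA and not at the annotated outer start of the host.

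C16D9.11 in rol-3 reached 32.1, W04D2.7 in inx-11, an innexin gene, 31.8, and F01D5.12 in F01D5.10 31.5, at 4, 30 and 32 bp upstream of the snoRNA. K11C4.6 in unc-70, the beta-spectrin gene, reached 31.0 at 89 bp upstream, 7649 bp from the host's TSS. All but K11C4.6 of these 8 genes held TGTCGG or GCGNAAC upstream, counting from C08D8.3. D1046.6 in cfim-2 reached 31.2 at 4 bp past its start, 945 bp from the host's TSS, and a neighbouring region there had a signal of 9.82.

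The other host intron genes had the host's TSS within 1000 bp of the summit. F54E7.10 in rps-12, a ribosomal protein gene, was the highest, at 82.4 (rank 44), with 15.4 in replicate 1 and 66.2 in replicate 2. Its summit lay 270 bp upstream of the snoRNA, 103 bp from the TSS of ska-3 and 190 bp from that of rps-12. K02F3.15 in zip-2, a bZIP transcription factor gene, reached 60.7 at 423 bp past the snoRNA's start, with 6.35 and 50.9 in replicates 1 and 2. That summit was 876 bp from the TSS of zip-2. Y43F8C.22 in Y43F8C.7 reached 34.1 at 45 bp upstream of the snoRNA, 798 bp from the host's TSS. H06I04.9 in ubl-1, which encodes a ubiquitin-like and ribosomal protein fusion, reached 32.7 at 379 bp upstream, 203 bp from the host's TSS. R151.11 in rpl-6 had 14.5, 317 bp from the host's TSS, and overlapped a listed neighbour.

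Hosts with ribosomal protein symbols, rpl or rps, a class known for carrying snoRNAs, were a minority, 8 host genes with 14 regions. Of these 2 overlapped a thresholded peak (14.3%), against 17 of 83 at the other 68 hosts (20.5%). With ubl-1 counted among the ribosomal protein hosts, the shares were 3 of 15 (20%) and 16 of 82 (19.5%). Only 1 of the 14 had its summit 1 to 150 bp upstream of the snoRNA, against 26 of the 83, and 11 of the 14 lay within 1000 bp of the host's TSS, against 16 of the 83. The median signals were 12.6 at ribosomal protein hosts and 10.3 at the others.

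Outside host introns, 12 snoRNA genes had a region in the thresholded list, with signals of 27.4 to 67.8. F59C6.15 was the highest, at 67.8 (rank 66), 71 bp upstream of its start, with 10.4 in replicate 1 and 57.6 in replicate 2. Y67A10A.14 followed at 36.2, 15 bp past its start, with 15.5 and 24.9 in replicates 1 and 2. Both held GCGNAAC and TGTCGG upstream, as did T26A8.6 (31.8) and F25H2.15 (30.0). Y53F4B.47 (29.6) held GCGNAAC alone, and its summit was 161 bp from the TSS of cmtr-1, a cap methyltransferase gene.

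The other 7 held neither word: ZK484.9 (32.2), F32E10.10 (31.95), W06H8.17 (30.9), C51F7.4 (30.8), D2021.6 (29.9), C36E8.11 (29.3) and T23G11.12 (27.4). T23G11.12 was the last region of the thresholded list, at rank 491, and lay 81 bp from the TSS of T23G11.11. D2021.6 lay 250 bp from the TSS of sdha-1, a succinate dehydrogenase subunit gene, and C36E8.11 lay 245 bp from that of tif-1A. F59C6.15 and F25H2.15 had over 50% of their 36-base words repeated elsewhere. W06H8.17 was listed with 12.3 in replicate 1 and no replicate 2 summit within 100 bp, and its neighbour 221 bp away had 35.1 in replicate 2 and none in replicate 1.

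The regions just short of the thresholded list were all at snoRNA genes. C17H12.36 had 27.2 (rank 499), ZK265.10 26.2, Y24D9A.9 in rpl-7A 25.9, T25C12.12 on X 25.4 and T03F7.8 24.9. Each had a summit of both replicates within 100 bp. The lowest signal, 6.03 (rank 29772), was at F19H8.7 in tps-2, with no summit of either replicate within 100 bp. At the edge of the 500 bp window, F54E7.11, K09H9.11 and F42A8.4 were inside at 499, 497 and 490 bp with 15.996, 11.9 and 7.92. EEED8.19, C06A1.9 and T05A6.20 were outside at 503, 504 and 505 bp, with 8.84, 115.4 and 6.77.

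Some small RNA genes had several neighbouring regions. Of 64 pairs of neighbouring regions at the same gene, 39 had summits at most 300 bp apart, at 36 genes, with a median spacing of 221 bp and a smallest of 199 bp. The summits stood on opposite sides of the gene's start in 11 of the 39. These were 8 of the 12 pairs in which a region overlapped a thresholded peak, against 3 of the other 27. At C08D8.3 the pair had signals of 39.5 upstream and 21.2 downstream, at C52E4.8 39.3 and 24.2, at F32B5.9 29.6 and 22.6, and at F25H2.15 30.0 and 19.1. At Y37E3.20 it had 37.3 and 12.5, at K11C4.6 31.0 and 9.40, and at T06D8.11 32.3 and 6.79. The upstream region was the higher in each of these. Both regions of F38E11.10, at 45.2 and 8.92, lay past the start, as did both of sup-6, and both close regions of W06H8.17, at 24.6 and 30.9, lay upstream of it.

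Over the 312 together, support from the replicates was above that of the pooled list. Their median pooled signal was also higher, at 10.7 against 8.38, and support was not compared at like signal. A replicate 1 summit lay within 100 bp of 131 of the 312 regions (42%, 36.4 to 47.7), against 26.0% of all pooled regions. A replicate 2 summit lay that near to 226 (72.4%, 67.1 to 77.3), against 65.3%. Both replicates had one at 83 regions (26.6%), against 12.7% of all pooled regions, and neither had one at 38 (12.2%), against 21.4%. By class, replicate 1 supported 35.7% of snRNA, 47.4% of host intron snoRNA and 40.9% of other snoRNA regions. The snRNA interval for replicate 1, 23.4 to 49.6, included the pooled 26.0%. Replicate 2 supported 66.1%, 75.3% and 73% in the same order, so snRNA regions lay near the pooled 65.3%. Both replicates supported 16.1%, 32% and 27%. Among the 35 listed regions, 26 had a replicate 1 summit and 34 a replicate 2 summit within 100 bp. The listed regions lay higher in the replicate 2 list, at a median rank of 267 over those 34, than in the replicate 1 list, at a median rank of 629.5 over those 26, although the replicate 2 list was longer. Of the 35, 32 overlapped a region among the 491 highest of replicate 2 and 13 overlapped such a region of replicate 1. These counts and ranks were not taken over all 491 thresholded peaks. Whether the lean to replicate 2 is particular to the 35 can therefore not be told.

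Across the 83 regions with both, the replicate signals had a Spearman rho of 0.364 and a Pearson r of 0.428 on the log2 scale. By class rho was 0.267 over 9 snRNA regions, 0.54 over 31 host intron snoRNA regions and 0.263 over 43 others. These describe regions that share their libraries and were chosen for having a summit in both lists.

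**Figure D5:**
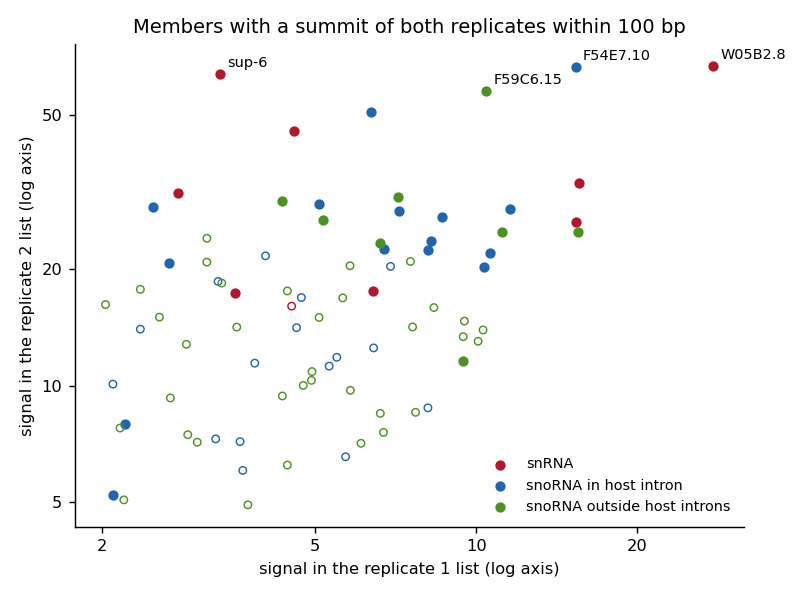
Signal in the replicate 2 list against signal in the replicate 1 list, both on log axes, for the 83 regions with a summit of both replicates within 100 bp, coloured by class; filled points overlap a thresholded peak. W05B2.8 is high in both lists, at 27.8 and 66.7, whereas sup-6 has 3.32 in replicate 1 and 63.7 in replicate 2; rho over all points is 0.364.

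The X chromosome held few of the regions. It held 19 of the 312 (6.09%), against 19.4% of all pooled regions, and 36 of the 457 genes lie there (7.88%). Of the 19 regions on X, 2 overlapped a thresholded peak, M163.13 and D2021.6. Chromosome V held the most overlaps by count, 13 of 65 regions, while III held 8 of 33, a larger share. No such share was counted by chromosome over all pooled regions. The chromosome medians ran between 9.83 on IV and 12.3 on V.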

How the data were processed

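ChIP-seq regions of 2 biological replicates were analysed. The deposited lists on ce11 hold a signal per region, the authors' own value, whose scaling is not stated, so signals were compared within 1 list only, apart from the descriptive correlation between the replicates. The aligner, region caller and IDR cutoff are not given in the sources used here, and the control library was not analysed here. Per the deposited notes, the pooled list came from both alignments and the control. Depth is unknown.

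Genes and introns came from Ensembl release 115, gene symbols and bases from RefSeq, matched by WormBase ID for all 475 genes. The members and lists were chosen with earlier results of these data known. No test was run, since there is 1 group; shares carry exact Clopper-Pearson intervals. The text names every region that overlaps a thresholded peak, the 5 highest that do not, and the lowest. The word GCGNAAC, the word TATATAA, the word GTTCGAA, the 150 bp split, the GC range, the family words and the ribosomal protein hosts were chosen after seeing the data. Code was tested on simulated intervals. Python 3.11.15, numpy 2.4.6, pandas 2.3.3, scipy 1.17.1 and matplotlib 3.10.9 were used.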

Additional observations from a re-analysis of the deposited data

How the results depend on the processing

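Over 79 alternative values, 66 stayed within the exact 95% interval of the reported value and 13 did not. With genes within 250 bp, 19.4% of the regions overlapped a thresholded peak. With genes within 1000 bp, the median signal was 9.79. With the 245 thresholded peaks of highest signal, the overlaps were 5.13% of all the regions, 14.3% at snRNA genes and 3.12% at snoRNA genes. They were 7.22% in host introns and 0.629% outside them (1 of 159), against 0.963% of all pooled regions. Outside host introns the share thus fell below that of all pooled regions. With a replicate left out, the host intron share ranged from 10.3% to 16.5%. The upstream counts were then 11 of 77 by replicate 1 and 21 of 77 by replicate 2, against 26 and 22 of 235 elsewhere. These position counts are not among the 79. Matching at 50 bp, at 200 bp and by overlap gave 26.0%, 53.2% and 62.5% for replicate 1, against 16.3%, 34.9% and 43.5% of all pooled regions. For replicate 2 these were 65.1%, 79.5% and 86.2%, against 56.3%, 72.4% and 77.0%. Merging overlapping regions, taking hosts on either strand and keeping the sls-2 regions left the shares within their intervals. Counting ubl-1 as a ribosomal protein host, chosen after seeing the data, gave a share of 20% against 14.3% without it. The shares also stayed within their intervals when counting 1 region per gene, listed regions alone, or regions with no protein-coding TSS within 1000 bp, all chosen after seeing the data. Intervals cover counting error only, and unknown depth limits every statement on regions of low signal. No paired analysis was possible because there is 1 group.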
